A study of Mus musculus with 6 samples.

Results

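The 9 genes described here are mouse *Ap1ar* and *Tifa*, the genes at the mouse locus that matches the position of the human lncRNA gene *AP1AR-DT*, and 7 genes for subunits of the AP-1 adaptor complex. They were chosen by symbol under a rule that used none of their values, although earlier results of these data were known. All 9 were found among the 52390 genes listed and had enough counts to be among the 21844 tested. The libraries are RNA-seq libraries of brain tissue from 3 control mice and 3 *AP1AR-DT* OE mice. All were male C57BL/6J mice, a common inbred strain, whose medial prefrontal cortex (mPFC) was injected at 8 weeks of age with a recombinant adeno-associated virus. In *AP1AR-DT* OE mice the virus carried *AP1AR-DT* (AC109347.1 in the labels), a human lncRNA, behind the promoter of human synapsin I, a neuronal gene. The control virus was the empty vector, and the vector backbone of both groups also encoded EGFP under a CMV promoter. The labels name the tissue only as brain, while the study's text names both the mPFC and cortical tissue. The share of cells in each sample that carried the virus is not known. The libraries held 42061721 to 54668294 counts each. Because *AP1AR-DT* is not a mouse gene, the table holds no count of it that would check the overexpression. The paper reports raised *AP1AR-DT* in injected mice by qRT-PCR, without stating whether the sequenced mice were among them.

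AP-1 is an adaptor made of 4 subunits, a gamma and a beta subunit (large), a mu subunit (medium) and a sigma subunit (small). It sits on the trans-Golgi network and on endosomes, where it gathers membrane proteins into clathrin-coated vesicles, and neurons use it to sort proteins into dendrites. *Ap1ar* encodes gadkin, also called gamma-BAR, a protein of AP-1 vesicles that binds AP-1, the motor kinesin-1 and the actin-nucleating Arp2/3 complex. *Tifa* encodes an adaptor that oligomerizes after activation of the kinase ALPK1 and passes the signal through TRAF6 to NF-kappaB.

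The libraries differed in makeup both within and between the groups. The summed level of 6 choroid plexus markers was 3887 normalized CPM (counts scaled with edgeR's TMM factors to a common library total) in control 3 and 50.8 to 72.7 in the other 5 libraries. The summed level of 5 oligodendrocyte markers was 8956 in control 3 and 4310 to 5565 in the others. The mean of 5 excitatory neuron markers deviated from its mean over all libraries by -0.74, -1.71 and 0.82 log2 units in control 1, 2 and 3, and by 0.96, 1.55 and -0.87 in *AP1AR-DT* OE libraries A, B and C. The 5 general neuron markers summed to 3211 to 3602 in control and 3061 to 3380 in *AP1AR-DT* OE mice. They did not move together, as their Log2FC (*AP1AR-DT* OE minus control) ran from -0.44 (*Map2*) to 0.40 (*Rbfox3*), with 3 above 0. No marker of any list was at 0 throughout a group. The 5 inhibitory neuron markers summed to 1010 in control 3 and to 1685 to 2084 in the other libraries. In control and *AP1AR-DT* OE mice, 5 endothelial markers summed to 73.3 to 89.7 and 89.4 to 125.8, and 5 microglia markers to 175.9 to 208.3 and 172.1 to 233.2. The part of these in the results was not tested. Mitochondrial genes took 7.20% to 9.86% of the counts in control and 5.75% to 6.80% in *AP1AR-DT* OE libraries, and 5 astrocyte markers summed to 1813 to 2015 and 1703 to 1755 normalized CPM, and the part of either in the results was not tested. In bulk tissue, fewer cells of a type and less RNA per cell cannot be told apart. Log2FC also moved with the GC content of the genes, from a median of -0.30 in the lowest decile of GC content to 0.22 in the highest, so values corrected for GC content are given beside those of the members.

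Of the 9 genes, 1 passed the thresholds of *P* under 0.05 and |Log2FC| above 0.32 in edgeR's quasi-likelihood test. It was *Ap1s1*, which was upregulated. Over all genes tested, 12.2% passed these thresholds, 5.1% upregulated and 7.15% downregulated, so 1 of 9 (11.1%) is close to the background. None of the 9 had an adjusted *P* under 0.05 (edgeR quasi-likelihood, Benjamini-Hochberg over all genes), where 0.0275% of all genes did, and the adjusted *P* of the 9 ranged from 0.296 to 0.952. DESeq2 and limma-voom also gave 0 of the 9, with lowest adjusted *P* of 0.120 and 0.285. Of the 9, 2 with DESeq2 and 1 with limma-voom had an unadjusted *P* under 0.05, and these also passed the Log2FC threshold. Among all genes, 3093 passed both thresholds with DESeq2 and 2745 with limma-voom, compared with 2675 with edgeR. The share of all genes with an adjusted *P* under 0.05 was taken with edgeR only. The groups did not overlap in 2 of the 9 genes (22.2%), *Ap1g1* and *Ap1g2*, compared with 22.4% of all genes. The median Log2FC of the 9 was 0.015, with 5 higher and 4 lower in *AP1AR-DT* OE mice, and the median of all genes was -0.014.

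**Figure D1:**
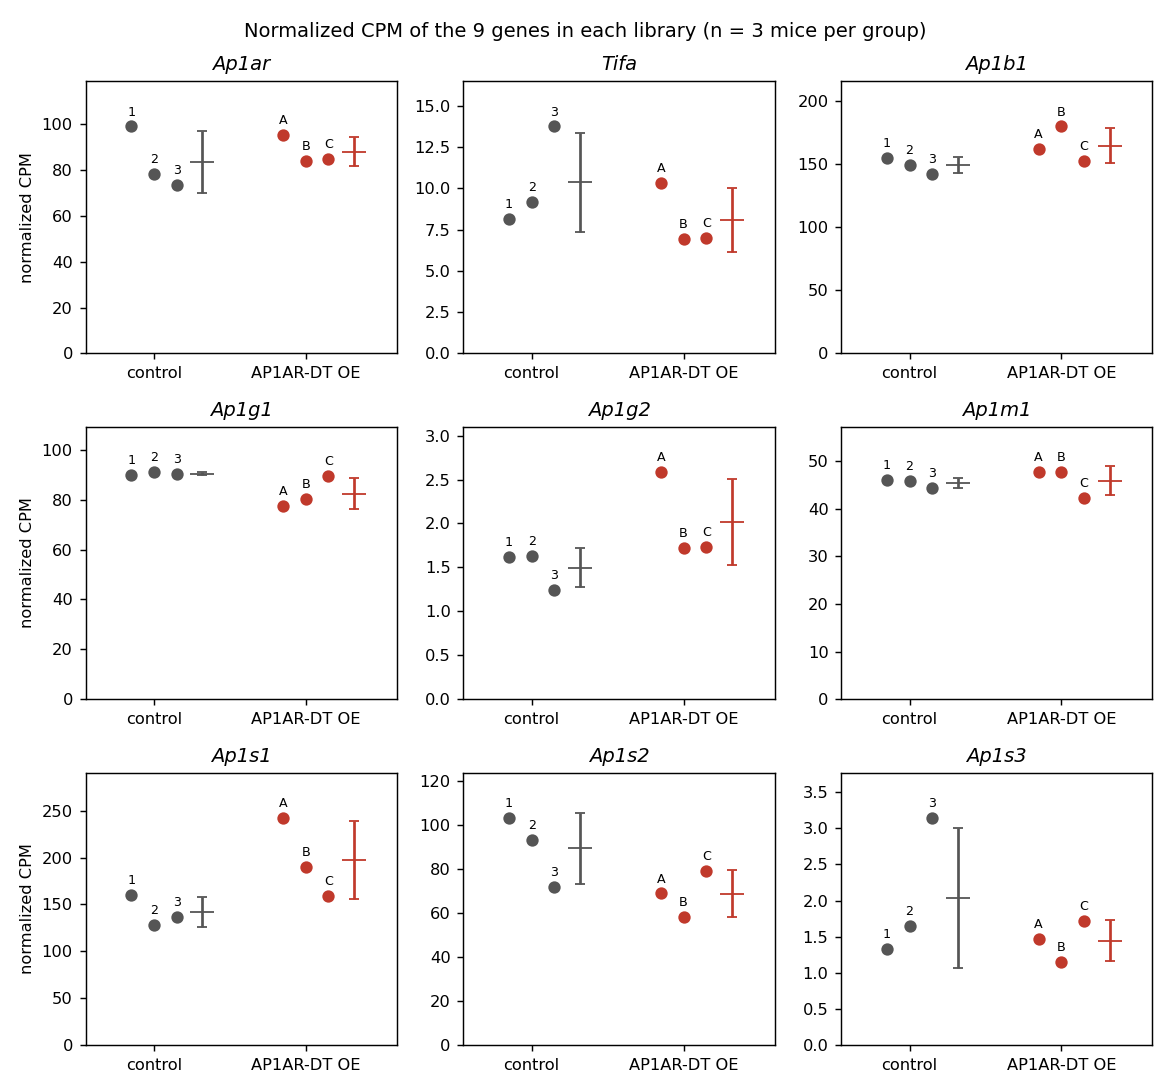
Normalized CPM of each of the 9 genes (vertical axis, from 0) in the 3 control libraries (grey, 1 to 3) and the 3 *AP1AR-DT* OE libraries (red, A to C), with the mean and SD of each group beside the points. Only *Ap1g1* and *Ap1g2* have groups that do not overlap, and *Tifa* and *Ap1s3* are highest in control 3.

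*Ap1ar* (ENSMUSG00000074238) is transcribed from the minus strand of chromosome 3 (GRCm38, 127807007 to 127837523). *Tifa* (ENSMUSG00000046688) is on the plus strand at 127789805 to 127832164. The spans of the genes overlap by 25158 bases on opposite strands but their exons share 0 bases. The upstream side of *Ap1ar* is held by *Gm43653*, annotated as an antisense gene on the plus strand from 127836911 to 127838644. It covers 355 exonic bases of *Ap1ar* (4.05%) and all 250 bases before the *Ap1ar* start. Those bases are printed because human *AP1AR-DT* is named as a divergent transcript of *AP1AR*, and this interval is the corresponding side of the mouse gene. They are chr3:127837524-127837773 of GRCm38 (RefSeq, GRCm38.p6), written along the minus strand up to the base before the start, and the capitals mark the 1 match to TGACG, the core of a CREB binding site, at position -49.

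Ap1ar upstream: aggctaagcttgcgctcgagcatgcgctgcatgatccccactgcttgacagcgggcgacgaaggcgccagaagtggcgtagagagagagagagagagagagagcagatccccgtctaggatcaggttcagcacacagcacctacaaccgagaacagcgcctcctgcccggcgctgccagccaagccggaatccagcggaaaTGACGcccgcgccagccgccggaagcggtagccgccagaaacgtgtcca

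The interval has 63.2% GC and 23 CpG dinucleotides. Matches to TGACG on either strand are present in 20.9% of 32544 mouse promoters of 300 bases (250 before and 50 after a start). Of the 8 members with a promoter in the table, *Ap1ar*, *Ap1g1*, *Ap1s1* and *Tifa* hold one. CCAAT, the letters of the CCAAT box, is in 37.4% of all promoters and in those of *Ap1ar*, *Ap1s1*, *Ap1s2* and *Tifa*. The GC box GGGCGG is in 35.9% of all and in those of *Ap1b1*, *Ap1g1*, *Ap1g2* and *Ap1s1*, and TATAAA is in 13.6% of all and in that of *Tifa* alone among the members. The NRF1 core CGCATGCG is in 1.87% of all promoters and in 0 of the 8. NRF1 is the transcriptional activator whose binding the study examined at another gene, and the absence of these letters from a 300-base window says nothing about its binding.

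*Ap1ar* did not pass the test. It was at 99.1, 78.5 and 73.5 normalized CPM in control 1, 2 and 3, and at 95.3, 83.9 and 84.9 in *AP1AR-DT* OE libraries A, B and C. All 3 *AP1AR-DT* OE libraries lay inside the range of the controls, whose highest and lowest values came from mice 1 and 3. The means were 83.7 ± 13.6 and 88.1 ± 6.31 (SD, n = 3). Log2FC was 0.073 (standard error 0.132, edgeR *P* = 0.595, adjusted *P* = 0.817, exact permutation *P* = 0.6, where 3 mice against 3 cannot give less than 0.1). The 95% confidence interval of the Log2FC ran from -0.24 to 0.38, that is from 0.848-fold to 1.31-fold. In 16 fits, made of this one and those with other tools, scalings, filters and corrections or with 1 mouse left out, its Log2FC ran from 0.0014 to 0.29 and 0 fits passed the thresholds. The highest value came with correction for the GC content of its longest transcript (42.2%, adjusted *P* = 0.578), and correction for the mean GC content of its transcripts gave 0.14. That longest transcript, of 5166 bases, is annotated as a retained intron, and the mean length of the 10 annotated transcripts is 1596 bases.

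*Tifa* also did not pass the test. Its normalized CPM were 8.14, 9.18 and 13.8 in the controls and 10.3, 6.92 and 6.97 in *AP1AR-DT* OE mice. The highest value was that of control 3, the library with the high choroid plexus and oligodendrocyte markers, and the groups overlapped. Log2FC was -0.36 (standard error 0.258, edgeR *P* = 0.204, adjusted *P* = 0.522, exact permutation *P* = 0.3). Without control 3 it was -0.087, and after GC correction -0.18. *Alpk1*, the kinase upstream of TIFA, lies 26480 bases from *Ap1ar* and was at 2.52 ± 0.263 and 2.73 ± 0.722 normalized CPM (SD, n = 3), with a Log2FC of 0.11 (edgeR *P* = 0.683, exact permutation *P* = 0.8).

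Within 250 kb of *Ap1ar*, 17 annotated genes were in the count table, and 8 were tested. In edgeR 0 of the 8 passed the thresholds and 0 had *P* under 0.05, as with DESeq2, while limma-voom called 1. Of all genes tested, 12.2% passed the thresholds in edgeR (2675 genes), and 2745 genes passed them with limma-voom. *Gm43653*, whose span holds the printed interval, had 13, 13 and 0 counts in the controls and 43, 45 and 29 in *AP1AR-DT* OE mice. Every *AP1AR-DT* OE library was above every control, and 22.4% of all genes tested likewise had groups that did not overlap. The means were 0.194 ± 0.170 and 0.733 ± 0.156 normalized CPM (SD, n = 3). The Log2FC was 1.92, with a 95% confidence interval from -0.42 to 4.27 (edgeR *P* = 0.0937, adjusted *P* = 0.394, exact permutation *P* = 0.1, the smallest possible). It passed the thresholds in 2 of 15 fits, limma-voom (Log2FC 3.01) and edgeR without control 3 (1.34), and its adjusted *P* was 0.298 to 0.703 over the fits. The sources used here do not state whether strand was used in counting, and without it reads within the 355 exonic bases that *Gm43653* and *Ap1ar* share cannot be told apart.

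*Fam241a*, 31535 bases upstream of the *Ap1ar* start, was at 2.67 ± 0.309 normalized CPM in control and 3.20 ± 0.149 in *AP1AR-DT* OE mice (SD, n = 3). Its groups did not overlap either, as in 22.4% of all genes tested. Its Log2FC was 0.26 (edgeR *P* = 0.229, exact permutation *P* = 0.1), and 0.50 after GC correction, which passed the thresholds (adjusted *P* = 0.545). *Zgrf1* gave 0.19 (exact permutation *P* = 0.8), the pseudogene *Gm16238* -0.50 (*P* = 0.2) and *Gm43654*, which had 0 to 15 counts, -1.02 (*P* = 0.3). Of the untested neighbors, the proneural gene *Neurog2* had 51 counts in control 3 and 0 to 4 in each of the other libraries, and 1500005C15Rik had 22 in control 3 and 0 to 2 elsewhere. Another 3 neighbors were listed at 0 in every library.

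**Figure D2:**
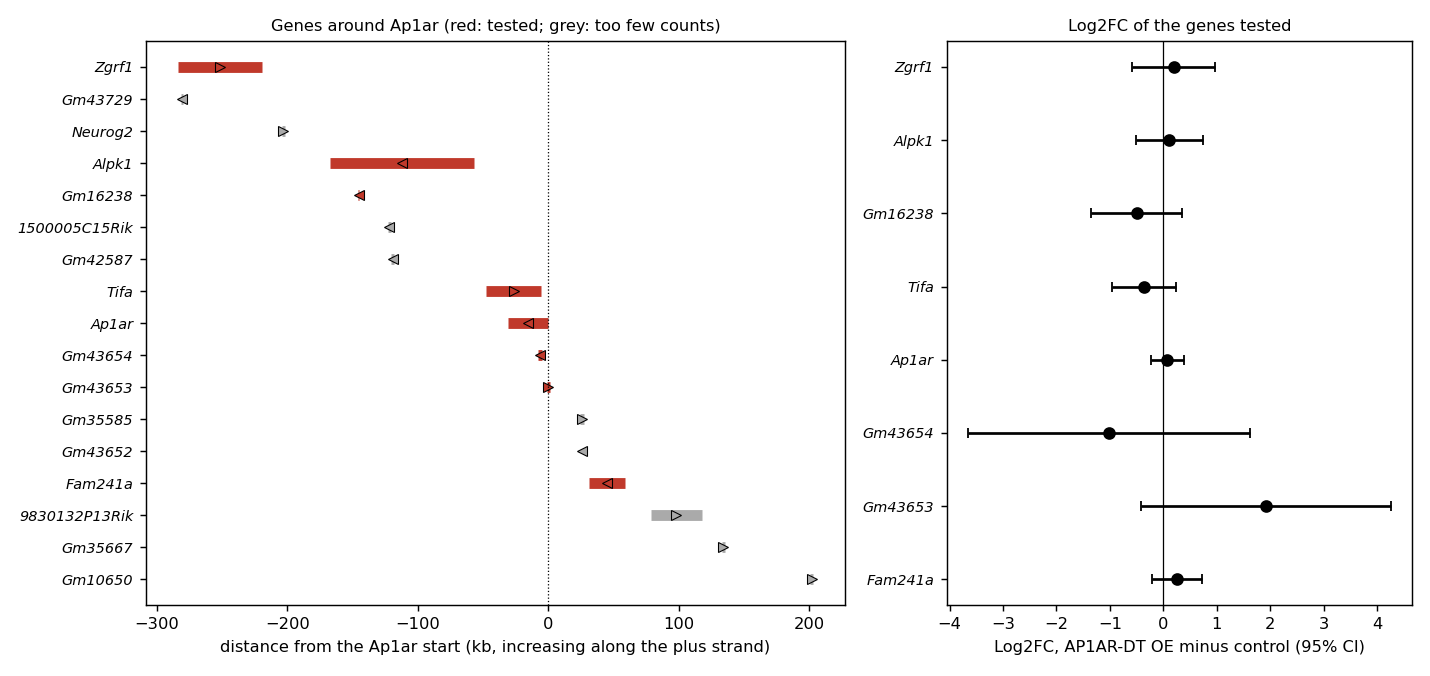
Left, the genes of the count table within 250 kb of *Ap1ar*, drawn to scale by their distance from the *Ap1ar* start in kb, with triangles pointing along each gene's strand, tested genes in red and genes with too few counts in grey. Right, Log2FC (*AP1AR-DT* OE minus control) of the 8 genes tested with 95% confidence intervals, which include 0 in all 8.

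*Ap1b1* (ENSMUSG00000009090, plus strand of chromosome 11, 4986824 to 5042791) encodes the beta subunit, which binds clathrin. Its normalized CPM were 154.7, 149.1 and 142.2 in the controls and 161.4, 179.5 and 152.2 in *AP1AR-DT* OE mice, with 1 *AP1AR-DT* OE library inside the control range. Log2FC was 0.14 (standard error 0.0930, edgeR *P* = 0.163, adjusted *P* = 0.477, exact permutation *P* = 0.2). After GC correction it was 0.0083.

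*Ap1g1* and *Ap1g2* encode the alternative gamma subunits, the large chains that hold the ear domain for accessory proteins. *Ap1g1* (ENSMUSG00000031731, plus strand of chromosome 8, 109778554 to 109864204) was at 90.1, 91.1 and 90.3 normalized CPM in the controls. In *AP1AR-DT* OE mice it was at 77.5, 80.3 and 89.5. All 3 were below the lowest control, library C by a small margin. Log2FC was -0.13 (standard error 0.0886, edgeR *P* = 0.173, adjusted *P* = 0.488, exact permutation *P* = 0.1, the smallest possible), and -0.019 after GC correction. Exons of the antisense gene *Gm17344* cover 18.7% of its exonic bases.

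*Ap1g2* (ENSMUSG00000040701, minus strand of chromosome 14, 55098575 to 55106593) was low, with 62 to 137 counts per library. It was at 1.62, 1.63 and 1.24 normalized CPM in the controls and 2.58, 1.73 and 1.73 in *AP1AR-DT* OE mice, each of which was above the highest control. Log2FC was 0.43 (standard error 0.285, edgeR *P* = 0.176, adjusted *P* = 0.491, exact permutation *P* = 0.1), with 0.29 after GC correction and 0.21 to 0.54 with each mouse left out. Per kilobase of the longest transcript, *Ap1g2* made up 3.63 ± 0.512% of the gamma subunit RNA in control and 5.31 ± 1.52% in *AP1AR-DT* OE mice (SD, n = 3; exact permutation *P* = 0.1), and *Ap1g1* the rest. The shares of the groups did not overlap. Without library A the difference in the share of *Ap1g1* was -0.816 percentage points, compared with -1.69 with all mice. With the mean transcript length in place of the longest, the *Ap1g2* shares were 2.10% and 3.10%. The coding sequences of *Ap1g1* and *Ap1g2* were identical at 65.7% of aligned bases, with no shared run longer than 12 bases, while *Thtpa* and *Gm20687* on the opposite strand cover 9.88% of the exonic bases of *Ap1g2*.

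*Ap1m1* (ENSMUSG00000003033, plus strand of chromosome 8, 72240018 to 72257385) encodes the mu subunit, which reads tyrosine-based sorting signals of cargo. It was the steadiest of the 9 genes, at 46.1, 46.0 and 44.3 normalized CPM in the controls and 47.7, 47.7 and 42.4 in *AP1AR-DT* OE mice. Its highest value was 1.13 times its lowest. The Log2FC was 0.015 with a 95% confidence interval from -0.20 to 0.23 (edgeR *P* = 0.875, adjusted *P* = 0.952, exact permutation *P* = 1), and it was -0.14 after GC correction. *Ap1m2*, the mu subunit of polarized epithelia, had 0, 0 and 6 counts in the controls and 22, 27 and 0 in *AP1AR-DT* OE mice, too few to be tested, and made up less than 1% of the mu subunit RNA in every library.

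The sigma subunits are the smallest chains of AP-1, and mice have *Ap1s1*, *Ap1s2* and *Ap1s3*. Because they are paralogs, their sequences were compared for reads that could be shared. Over the coding sequence (GENCODE vM21), *Ap1s1* and *Ap1s2* were identical at 73.0% of aligned bases, *Ap1s1* and *Ap1s3* at 70.4%, and *Ap1s2* and *Ap1s3* at 73.4%. The longest runs shared by a pair were 14, 20 and 21 bases. No stretch of 100 bases of the longest *Ap1s1* or *Ap1s2* transcript was found in a transcript of another gene. For *Ap1s3*, 6.05% of such stretches were also in *Gm15786*, *Gm4860* or *Gm8532*, so its counts are less certain.

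*Ap1s1* (ENSMUSG00000004849, minus strand of chromosome 5, 137034993 to 137046135) encodes sigma 1A. It was at 160.3, 128.3 and 137.0 normalized CPM in the controls and at 242.2, 190.2 and 159.3 in *AP1AR-DT* OE mice. Libraries A and B were above every control, and library C was just below control 1, so the groups overlapped. The means were 141.9 ± 16.5 and 197.2 ± 41.9 (SD, n = 3). Log2FC was 0.48 (standard error 0.167, 95% confidence interval 0.082 to 0.87). This passed the thresholds before adjustment (edgeR *P* = 0.0245) but not after it (adjusted *P* = 0.296, edgeR quasi-likelihood, Benjamini-Hochberg), and the exact permutation test gave *P* = 0.2. Of the 16 fits, 11 passed the thresholds. The other 5 were those with GC correction by the longest transcript (0.32) or by the mean of its transcripts (0.36), and those without library A (0.30), control 2 (0.42) or control 3 (0.47). The longest *Ap1s1* transcript has 55.9% GC, in a decile of genes whose median Log2FC was 0.16. Libraries A and B, in which *Ap1s1* was highest, also had the highest mean of the 5 excitatory neuron markers (0.96 and 1.55 log2 units). Control 3 followed at 0.82, with *Ap1s1* at 137.0, and it had more *Slc17a7* than library A and more *Neurod6* than libraries A and B. The part of these markers in the result was not tested.

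*Ap1s2* (ENSMUSG00000031367, plus strand of chromosome X, 163909017 to 163933666) encodes sigma 1B, the X-linked sigma subunit. It was at 103.0, 93.0 and 71.7 normalized CPM in the controls and at 68.8, 58.1 and 79.2 in *AP1AR-DT* OE mice. Libraries A and B were below every control, and library C was above control 3. The means were 89.2 ± 16.0 and 68.7 ± 10.5 (SD, n = 3). Log2FC was -0.38 (standard error 0.169, 95% confidence interval -0.78 to 0.020). This did not pass the test (edgeR *P* = 0.0598, adjusted *P* = 0.343, exact permutation *P* = 0.2). It passed the thresholds with DESeq2 (-0.37, adjusted *P* = 0.257), without control 3 (-0.50) and without library C (-0.48). After GC correction the Log2FC was -0.0080 (adjusted *P* = 0.991). The longest *Ap1s2* transcript has 35.4% GC, in the lowest decile, whose median Log2FC was -0.30.

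*Ap1s3* (ENSMUSG00000054702, minus strand of chromosome 1, 79606876 to 79671972) encodes sigma 1C and was low, with 54 to 157 counts per library. It was at 1.33, 1.65 and 3.14 normalized CPM in the controls and 1.47, 1.15 and 1.72 in *AP1AR-DT* OE mice, with its highest value in control 3. Log2FC was -0.50 (standard error 0.385, edgeR *P* = 0.237, adjusted *P* = 0.556, exact permutation *P* = 0.5), with -0.030 without control 3 and -0.21 after GC correction.

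**Figure D3:**
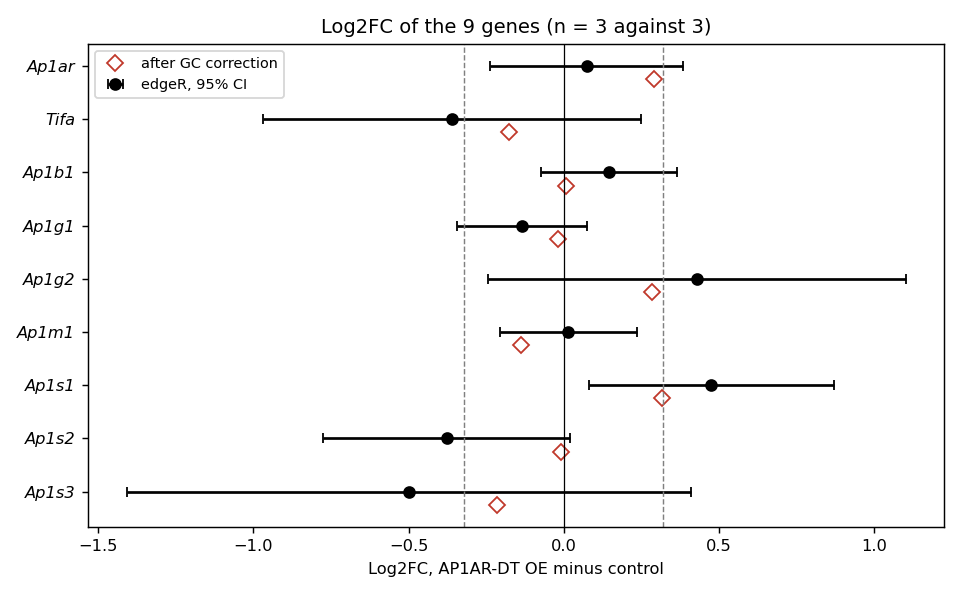
Log2FC (horizontal axis, *AP1AR-DT* OE minus control) of each of the 9 genes with the 95% confidence interval from edgeR (black) and the value after GC correction (red diamonds), and dashed lines at the Log2FC threshold of 0.32 in either direction. Only the interval of *Ap1s1* excludes 0, and the value of *Ap1s2* moves from -0.38 to near 0 after GC correction.

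Within the sigma class, the share of each gene was compared between the groups. Per kilobase of the longest transcript, *Ap1s1* made up 78.4%, 76.2% and 81.2% of the sigma subunit RNA in the controls and 89.0%, 88.3% and 82.3% in *AP1AR-DT* OE mice. Each *AP1AR-DT* OE library was above each control, with library C closest to control 3. The means were 78.6 ± 2.49% and 86.6 ± 3.72% (SD, n = 3), a difference of 7.98 percentage points (exact permutation *P* = 0.1, the smallest possible). The share of *Ap1s2* was 20.9 ± 2.72% in control and 13.1 ± 3.62% in *AP1AR-DT* OE mice (exact permutation *P* = 0.1), and that of *Ap1s3* was 0.547 ± 0.295% and 0.307 ± 0.0947% (exact permutation *P* = 0.2). With each mouse left out the difference in the *Ap1s1* share was 6.73 to 10.1 percentage points. The ratio of *Ap1s1* to *Ap1s2* in normalized CPM was 1.56, 1.38 and 1.91 in the controls and 3.52, 3.28 and 2.01 in *AP1AR-DT* OE mice. The Log2FC of *Ap1s1* was 0.85 above that of *Ap1s2*. This difference was 0.32 after GC correction and 0.38 with the mean GC content of the transcripts, a comparison chosen after seeing the data.

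**Figure D4:**
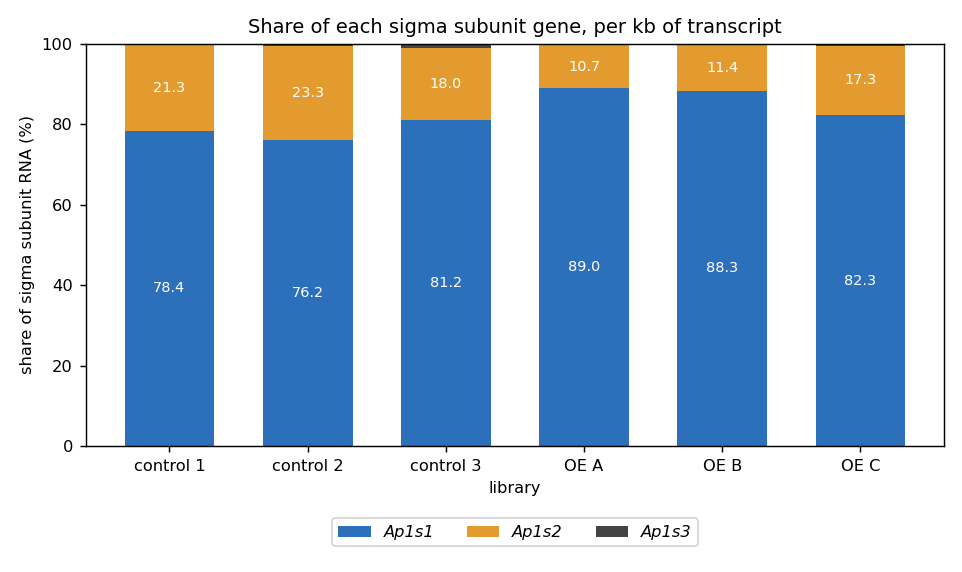
Share of the sigma subunit RNA (vertical axis, percent, per kilobase of the longest transcript) held by *Ap1s1* (blue), *Ap1s2* (orange) and *Ap1s3* (dark, below 1% in every library) in each of the 6 libraries. The *Ap1s1* share is 76.2% to 81.2% in the controls and 82.3% to 89.0% in *AP1AR-DT* OE libraries.

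Levels of different genes were compared per kilobase of the longest transcript, as the mean of normalized CPM per kilobase over the 6 libraries. On this scale *Ap1s1* was highest, at 125.3 (94.8 to 179.0), followed by *Ap1b1* at 38.3 (34.8 to 43.9). *Ap1s2* at 24.7 (18.2 to 32.2) and *Ap1m1* at 21.9 (20.3 to 22.9) overlapped in their ranges over the libraries. *Ap1ar* followed at 16.6 (14.2 to 19.2), *Ap1g1* at 12.5 (11.2 to 13.2) and *Tifa* at 3.62 (2.72 to 5.40), each without overlap with the next. *Ap1s3* at 0.606 and *Ap1g2* at 0.579 overlapped, and *Ap1m2* was at 0.0622. The order depends on the length used. With the mean transcript length *Ap1ar* came 3rd at 53.8 and *Ap1s2* came 6th at 35.6, while *Ap1s1* and *Ap1b1* stayed at the top.

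The rest of the pathway was described by 8 lists with 76 genes tested. Of these, 8 passed the thresholds (10.5%, compared with 12.2% of all genes), 4 upregulated and 4 downregulated, and their median Log2FC was 0.0065. None had an adjusted *P* under 0.05 in edgeR (quasi-likelihood test, Benjamini-Hochberg), where 12 had an unadjusted *P* under 0.05 and the 8 had adjusted *P* between 0.295 and 0.312. Adjusted *P* was under 0.05 for 0 of the 76 with limma-voom and for 2 with DESeq2, *Ap5b1* (0.0109) and *Kif5b* (0.0245). The share of all genes under this adjusted *P* was taken with edgeR only, so the 2 genes of DESeq2 cannot be set against a background. The groups did not overlap in 20 of the 76 genes (26.3%, compared with 22.4% of all genes), 7 of the 8 among them. With GC correction by the longest transcript, 5 of the 8 stayed past both thresholds, and with correction by the mean GC content of the transcripts, 3 did, *Ap5b1*, *Atp7a* and *Kif5b*.

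Among the other adaptor complexes, 0 of 5 AP-2 genes (endocytosis at the plasma membrane), 0 of 7 AP-3 genes (transport to lysosome-related organelles) and 0 of 4 AP-4 genes passed, with median Log2FC of 0.18, 0.050 and -0.011. Of 4 AP-5 genes, *Ap5b1* was upregulated. It was at 0.492, 1.20 and 1.36 normalized CPM in the controls and at 1.30, 8.24 and 6.73 in *AP1AR-DT* OE mice, so library A lay within the controls and B and C far above them. Log2FC was 2.40 (standard error 0.699, adjusted *P* = 0.295 in edgeR), and limma-voom, in which it did not pass, gave 2.09.

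Of 22 clathrin and AP-1 accessory genes, 2 were upregulated and 1 was downregulated, and the median Log2FC of the list was -0.066. *Arf1*, the small GTPase that recruits AP-1 to membranes, was at 314.4 ± 12.8 normalized CPM in control and 401.9 ± 28.9 in *AP1AR-DT* OE mice (SD, n = 3), a Log2FC of 0.35. *Gga3*, a clathrin adaptor that works beside AP-1, rose from 45.2 ± 3.43 to 57.8 ± 4.71, a Log2FC of 0.36. Both values dropped under the Log2FC threshold after GC correction (each 0.25, or 0.30 and 0.22 by the mean GC content of the transcripts). The same held without library B (0.30 and 0.29). That of *Gga3* also dropped under it without control 3 (0.318), and that of *Arf1* with correction for transcript length (0.29). *Heatr5a*, of the family of the AP-1 partner HEATR5B, fell by 0.32 on the log2 scale and passed the thresholds in 5 of 16 fits, with -0.20 by the mean GC content of its transcripts and -0.21 under the length correction. It was not called without control 2 (-0.27), control 3 (-0.28), library A (-0.30), library B (-0.32) or library C (-0.33).

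Of 8 AP-1 cargo genes, *Furin*, a protease that cycles through the trans-Golgi network, rose from 28.9 ± 2.24 to 38.9 ± 1.32 normalized CPM (SD, n = 3), a Log2FC of 0.43, and 0.27 after GC correction or 0.21 by the mean GC content of its transcripts. *Atp7a*, a copper transporter of the trans-Golgi network, was at 3.93, 4.70 and 6.79 in the controls and 2.24, 2.06 and 3.28 in *AP1AR-DT* OE mice. Its Log2FC of -1.02 passed the thresholds in all 16 fits. The median of the cargo list was 0.013.

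Of 12 genes of the Arp2/3 complex and kinesin-1, both of which gadkin is known to bind, *Kif5b* was downregulated. This motor gene was at 203.7, 238.8 and 270.8 normalized CPM in the controls and 156.8, 135.0 and 176.2 in *AP1AR-DT* OE mice, a Log2FC of -0.61 that was -0.36 after GC correction and passed the thresholds in all 16 fits. Of 14 genes of TIFA signalling, *Tab2*, an adaptor of the kinase TAK1, was downregulated, from 66.7 ± 3.34 to 52.3 ± 4.22 (SD, n = 3), a Log2FC of -0.35. It fell under the Log2FC threshold without control 3 (-0.30) and without library B (-0.28), and it was -0.16 after correction by the mean GC content of its transcripts. The medians of these lists were -0.059 and -0.034.

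**Figure D5:**
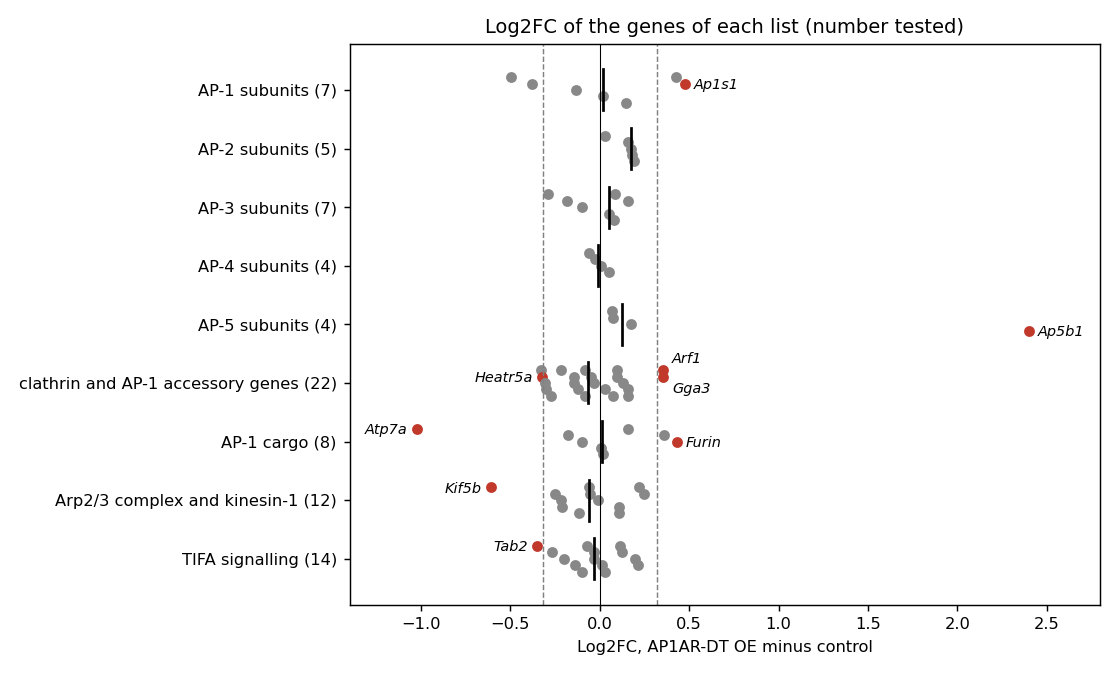
Log2FC (horizontal axis, *AP1AR-DT* OE minus control) of each gene tested in the AP-1 subunit list and the 8 other lists, with genes past both thresholds in red and named, others in grey, the list median as a black bar and dashed lines at 0.32 in either direction. Most genes lie between the dashed lines, and the medians run from -0.066 to 0.18.

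The genes whose pattern over the 6 libraries was most like that of *Ap1ar* were *Ttc17*, *Adamts3*, *Ccdc115*, *Ephx2* and *Brd2*, with Pearson's r of log2 normalized CPM from 0.977 to 0.997 among 14391 well-expressed genes. For *Tifa* they were *Foxo4*, *Gm14829*, *Kcnq3*, *Epb41l2* and *Pcna*, with r from 0.969 to 0.992. With 6 libraries such values are frequent, and 144 genes had r above 0.9 with *Ap1ar* and 56 with *Tifa*. The values describe the same 6 libraries of 2 groups and are not tests.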

How the data were processed

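Libraries were made with a TruSeq RNA kit, per the labels. Per the paper's methods, the authors aligned paired-end reads to GRCm38 (Bowtie2) and derived the count of each GENCODE gene from its coverage (StringTie). The deposited table holds these raw counts without normalization, beside a mean over all mice and the fold changes and P-values of the authors' own comparison, which were not used. The submitters' processing notes name other tools and another build (TopHat2 2.0.4, SAMtools, HTSeq, Cuffdiff, edgeR 2.6.12 and mm9), while the file itself is named after Bowtie2, StringTie and DESeq2, so the pipeline is not settled. An aligner without splicing, such as Bowtie2, maps reads over exon junctions less often. Use of strand is not given in the sources used here.

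Control columns match the control mice by number. *AP1AR-DT* OE columns are numbered 1 to 3 and the mice 3 to 5, hence the names A, B and C for those libraries. Counts were tested in R 4.3.3 with edgeR 4.0.16 (filterByExpr, TMM factors, quasi-likelihood F-test, two-sided, 6 mice, no covariate), with Benjamini-Hochberg adjustment over 21844 genes. The common biological coefficient of variation was 0.313, and the standard errors rest on 3 mice per group. The alternatives were DESeq2 1.42.0, limma-voom (limma 3.58.1), other size factors and filters, natural splines with 5 degrees of freedom on GC content or length as offsets, and leaving out each mouse. Confidence intervals of Log2FC use the standard error and the degrees of freedom of the fit. Exact permutation tests of log2 normalized CPM or of shares were two-sided, with 0.5 added before the log for the genes around *Ap1ar*. Counts of replicates differed by far more than sampling noise (chi-square per gene 44.4 to 95.3). The script was tested on simulated data. Coordinates, exons, lengths and GC content are from GENCODE vM21 on GRCm38, and the coordinates of the deposited table were not used. Promoters are from RefSeq (GRCm38.p6). Correlations used genes with a mean log2 CPM above 2. Tables and figures were made with Python 3.11.15, pandas 2.3.3, scipy 1.17.1 and matplotlib 3.10.9. The genes named are the 9 members, *Ap1m2*, *Alpk1*, the listed pathway genes past the thresholds and the 5 genes most correlated with *Ap1ar* and with *Tifa*. The genes around *Ap1ar* and some marker genes are named as well. The members, lists and tests were chosen with earlier results of these data known.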

Additional observations from a re-analysis of the deposited data

How the results depend on the processing

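Of 135 Log2FC values of the members recomputed under other settings, 121 kept their direction and their call, that is, passing both thresholds or not. A Log2FC could cross 0.32 without a change of call, as that of *Ap1s2* did after GC correction (from -0.38 to -0.0080). *Ap1ar* kept its direction and call under all 15, with a Log2FC from 0.0014 to 0.21 with 1 mouse left out. *Ap1s1* had a Log2FC of 0.32 when corrected for GC by its longest transcript and 0.36 by the mean of its transcripts, and 0.30 to 0.62 with 1 mouse left out, losing the call without control 2, control 3 or library A. *Ap1s2* passed with DESeq2 (-0.37) and ranged from -0.50 to -0.26 with 1 mouse left out, passing without control 3 or library C. Their difference, 0.85, was 0.32 and 0.38 under the GC corrections and 0.68 to 1.10 with 1 mouse left out. *Ap1g1* reversed to 0.0097 with the mean GC content, and *Ap1m1* to -0.14 and -0.13 under the GC corrections, -0.044 under the length correction, and -0.011 and -0.012 without library A and B (-0.012 to 0.084 with 1 mouse left out). The number of members called was 0 under either GC correction, 2 with DESeq2, and 0 to 2 with 1 mouse left out. The number of all genes called was 1569 and 1556 under the GC corrections and 1430 to 3508 with 1 mouse left out, with 1430 without library B and 1620 without library A.

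The spread between 3 mice limits these comparisons: the 95% confidence interval of *Ap1ar* still allows a 1.31-fold rise, and those of *Ap1g2*, *Ap1s3* and *Tifa*, which had lower counts, are wider. Counts alone cannot separate a change with GC content from a change of genes that have that GC content. No paired analysis was made, because the labels state no pairing of control with *AP1AR-DT* OE mice and the *AP1AR-DT* OE columns do not name their mice.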
